A study of Mus musculus with 36 samples.

Results

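Transcripts of 10 enzymes of the antioxidant and NADPH supply, many of them known targets of the transcription factor NRF2, were measured in the livers of male mice with or without the insulin receptor in hepatocytes. The enzymes were Gclc, Gclm, Gsr, Srxn1, Txnrd1, G6pdx, Pgd, Taldo1, Nqo1 and Hmox1. They were chosen by name, with earlier results of these data known, and every array probe with one of these gene names was taken. This gave 15 of the 56605 probes on the array. The test required a signal well above background on 6 or more of the 36 arrays, which 13 of the 15 had. They covered all 10 enzymes, among 23054 genes tested in all.

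The knockout mice (IRLKO) descended from animals with loxP sites around the fourth exon of Insr, the insulin receptor gene, crossed with C57BL/6J mice that carry a tamoxifen-inducible Cre recombinase under the transthyretin promoter (TTR-CreTam). The control mice (IRLWT) came from the same line and kept Insr. Livers were taken at Zeitgeber times ZT8, ZT12 and ZT16, counted in hours from lights-on, with lights off at ZT12. The 6 groups therefore were IRLWT and IRLKO at each of the 3 times, with 6 arrays each, and all mice were 11 weeks old, ate a standard chow freely and received no further treatment. The labels give neither the date of the tamoxifen nor whether controls carried Cre. They number the replicates but do not say that each is a separate animal, so the p-values below measure the spread between these samples. The comparisons address what the loss of the hepatocyte insulin receptor does to these transcripts at each time.

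NRF2 (gene Nfe2l2) is held by KEAP1 and degraded in resting cells. When electrophiles or oxidants modify KEAP1, NRF2 accumulates, pairs with a small MAF protein and binds antioxidant response elements near its target genes. Those genes make glutathione and reduce oxidised glutathione, thioredoxin and peroxiredoxins. The reduction of glutathione and of thioredoxin draws on NADPH, which the pentose phosphate pathway supplies from glucose 6-phosphate. In liver the same NADPH also feeds fatty acid synthesis, and insulin is a known inducer of that pathway.

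The core of the antioxidant response element, TGACNNNGC, was searched on both strands in the RefSeq promoter windows of build GRCm38.p6, which run from 250 bases before to 50 bases after a start. Such windows were at hand for 7 of the 10 enzymes, 10 windows in all, and not for Gclc, Hmox1 and Gsr. The core occurred in windows of 5 enzymes (5 of the 10 windows), while 12.4% of all 32851 windows and 14% of the 27025 genes with a window held it. All 5 enzymes with the core are shown, whatever their genotype difference. Each line gives the strand of the gene, 5′ to 3′, with the core in capitals. In all but Pgd the core lies on the opposite strand, so the capitals read GCNNNGTCA.
Srxn1: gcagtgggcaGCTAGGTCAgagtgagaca
Gclm: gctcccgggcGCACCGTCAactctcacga
Pgd: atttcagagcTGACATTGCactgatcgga
G6pdx: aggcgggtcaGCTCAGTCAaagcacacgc
Txnrd1: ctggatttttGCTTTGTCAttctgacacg

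The Srxn1 stretch lies at chr2:152105542-152105570 on the plus strand, and its core covers bases 29 to 37 after the start. The Gclm stretch is at chr3:122245413-122245441 on the plus strand, with the core at bases -134 to -126. The Pgd stretch is at chr4:149166061-149166089 on the minus strand, and the core covers bases 4 to 12 after the start of the second of 2 windows. The G6pdx stretch is at chrX:74428919-74428947 on the minus strand, with the core at -57 to -49. The Txnrd1 stretch is at chr10:82859104-82859132 on the plus strand, with the core at -92 to -84 in the second of 3 windows. The windows of Nqo1 and Taldo1 did not hold these letters. A match of this kind is a description of the sequence and not a binding site.

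Expression is given as the log2 signal minus that of the array's 75th percentile, so that 0 is that percentile. The 75th percentile signal ran from 311 to 525 intensity units over the arrays, 53.7% to 63.1% of spots were well above background and no spot was saturated. Insr itself, with its brighter probe, averaged -1.40 ± 0.25 (SD, n = 6) in ZT8 controls and -3.17 ± 0.25 in ZT8 knockouts, and was lower in knockouts without overlap at each time, with differences of -1.77, -1.88 and -1.65 in order of time. A second, dimmer Insr probe, well above background on 27 arrays, gave -0.95, -1.46 and -0.59 (adjusted p over probes = 0.0171 at ZT16, limma), and at ZT16 its groups overlapped. Whether either probe reads the deleted exon was not determined here. All 8 hepatocyte markers looked at (such as Alb and Hnf4a) were detected above background on each array. Their signals, summed in multiples of the 75th percentile, had medians of 3610, 3710 and 3860 in controls at ZT8, ZT12 and ZT16. The knockout medians were 2750, 3240 and 3180, and the groups did not overlap at ZT12 and ZT16. The median log2 difference over the 8 markers was -0.07, 0.22 and -0.08 in order of time. At ZT12 it thus went the other way from the sum, in which the brightest markers weigh most. In knockouts 0, 3 and 1 of the 8 were called higher and 3, 2 and 2 lower (limma, adjusted p under 0.05). Of all genes, 16.7%, 19.6% and 19.9% were called higher and 18.7%, 22.6% and 20% lower. The knockout ZT8 replicate 3 stood apart on the second principal component, with a score of 2.49 against 23.8 to 35.9 for the other 5 ZT8 knockouts. Apart from this array, scores on that component fell with time. Those of the ZT12 arrays ran from -12.3 to 6.62, so this ZT8 array lay among them, and the reason was not tested. The calls for the 10 enzymes that it decides are given without it. In whole liver, fewer cells of a type and less RNA per cell cannot be told apart.

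At each time, 6 of the 10 enzymes differed between genotypes past the test (limma, Benjamini-Hochberg adjusted p under 0.05 over all genes). At ZT8, Gsr and Hmox1 were higher in knockouts and Gclc, Gclm, Pgd and Taldo1 were lower, where 35.4% of all genes passed (16.7% higher and 18.7% lower). At ZT12, Hmox1 was higher and Gclc, Gclm, Pgd, Taldo1 and Txnrd1 were lower, where 42.2% of all genes passed (19.6% higher and 22.6% lower). At ZT16, Gsr, Srxn1 and Hmox1 were higher and Gclc, Pgd and Taldo1 were lower, where 39.9% of all genes passed (19.9% higher and 20% lower). The enzymes thus moved in both directions, and Gclc, Pgd, Taldo1 and Hmox1 passed at all 3 times. In order of time their median differences were -0.10, -0.17 and -0.01, beside all-gene medians of 0.007, -0.0168 and 0.0029. The 6 knockouts and 6 controls did not overlap for 2 enzymes at ZT8, 3 at ZT12 and 4 at ZT16, while 15.5%, 21.3% and 19.2% of all genes did not overlap. The enzymes were chosen with earlier results of these data known. Their counts beside the shares of all genes are therefore a description and not a test of an excess.

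**Figure D1:**
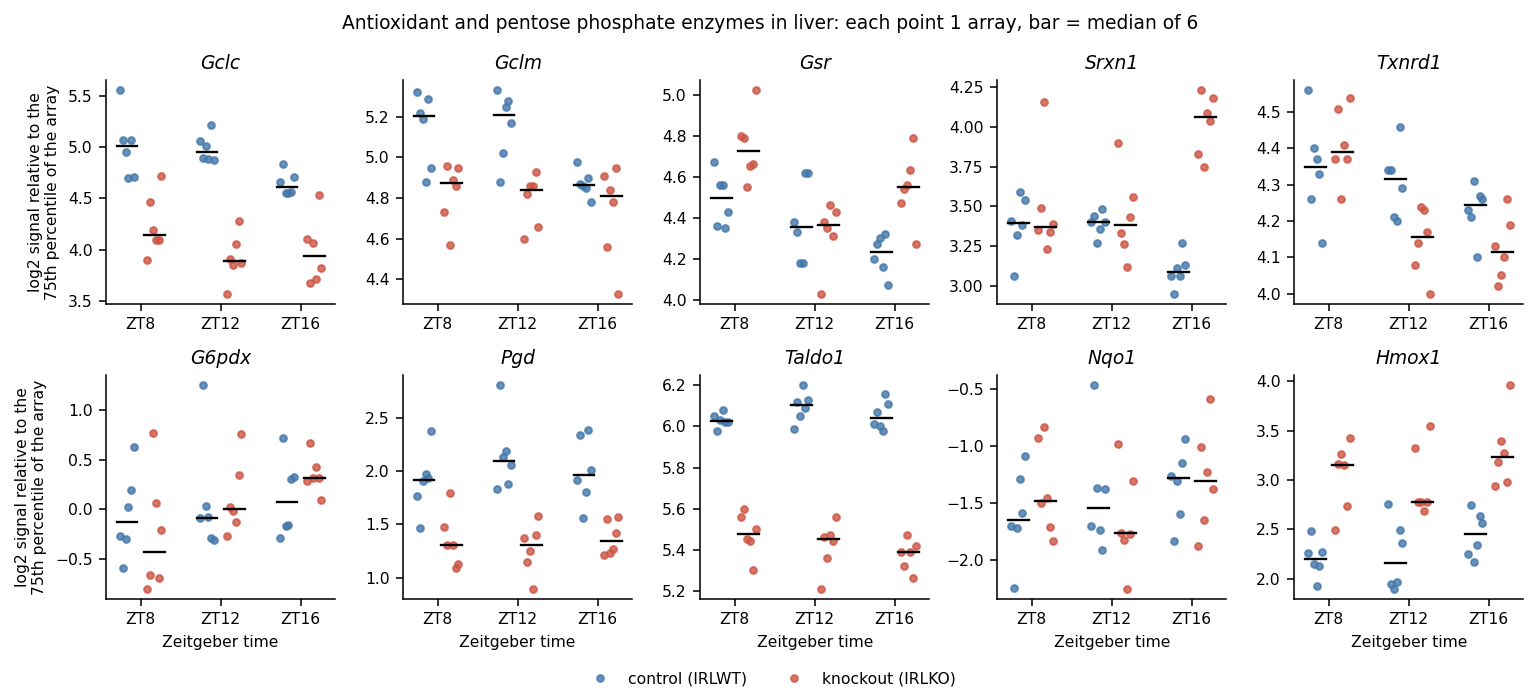
Log2 signal above the array's 75th percentile (vertical axis, a separate range in each panel) of the 10 enzymes at ZT8, ZT12 and ZT16, with 1 point per array and a bar at the median of 6, controls in blue and knockouts in red. Taldo1 knockouts lie below every control at each time, and Srxn1 knockouts lie above every control at ZT16, from 3.75 to 4.23 against 2.95 to 3.27.

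**Figure D2:**
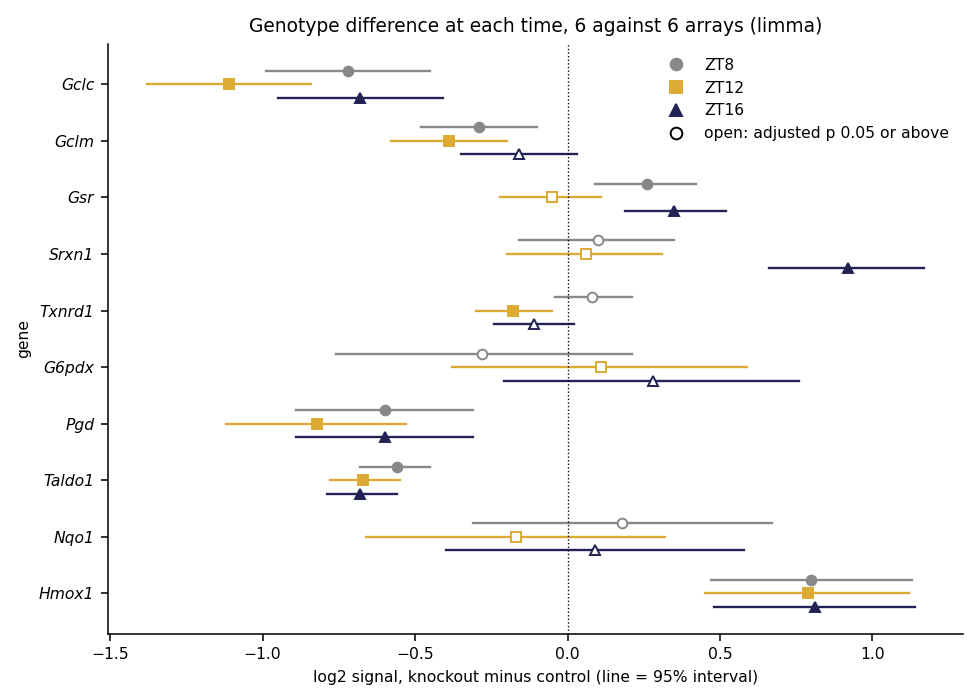
Knockout minus control difference in log2 signal (horizontal axis) of the 10 enzymes at ZT8, ZT12 and ZT16, with the 95% interval from limma as a line and open symbols where the adjusted p was 0.05 or above. Gclc, Pgd and Taldo1 lie below 0 and Hmox1 above 0 at all 3 times, and Srxn1 lies apart from 0 at ZT16, at 0.92.

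Glutathione is made in 2 steps, and the first is catalysed by glutamate-cysteine ligase, an enzyme of a catalytic subunit (Gclc) and a modifier subunit (Gclm). Gclc, read by a probe at chr9:77641296-77641355 (mm9), had a lowest, median and highest value of 4.70, 5.01 and 5.55 in ZT8 controls and 3.90, 4.14 and 4.72 in ZT8 knockouts. At ZT12 these were 4.87, 4.95 and 5.21 in controls and 3.57, 3.89 and 4.28 in knockouts. At ZT16 they were 4.55, 4.61 and 4.83 in controls and 3.67, 3.94 and 4.53 in knockouts. All knockouts lay below all controls at ZT12 and ZT16, and 5 of 6 did so at ZT8. Gclc was lower, with a log2 difference of -0.72 (SE 0.13, adjusted p = 6.72e-05) at ZT8, -1.11 (SE 0.13, adjusted p = 6.33e-08) at ZT12 and -0.68 (SE 0.13, adjusted p = 1.22e-04) at ZT16 (limma). The ZT12 value is 46.4% of the control level. Each of the 3 wash batches of the arrays held all 6 groups, with 1 to 3 arrays of a group. Differences within wash batches, here and below, are therefore plain differences of means without a test. For Gclc they ran from -1.16 to -0.47 at ZT8, from -1.26 to -1.01 at ZT12 and from -0.96 to -0.29 at ZT16.

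Gclm, read at chr3:121967737-121967796 (mm9), differed less. Its lowest, median and highest values were 4.88, 5.20 and 5.32 in ZT8 controls and 4.57, 4.87 and 4.96 in ZT8 knockouts. They were 4.88, 5.21 and 5.33 in ZT12 controls and 4.60, 4.84 and 4.93 in ZT12 knockouts. At ZT16 they were 4.78, 4.87 and 4.98 in controls and 4.33, 4.81 and 4.95 in knockouts. The ranges overlapped at every time, and 3, 5 and 2 of the 6 knockouts lay below all controls at ZT8, ZT12 and ZT16. Gclm was lower, at -0.29 (SE 0.09, adjusted p = 0.0146) at ZT8 and at -0.39 (SE 0.09, adjusted p = 0.00108) at ZT12 (limma). At ZT16 the difference of -0.16 did not pass (95% interval -0.35 to 0.03, adjusted p = 0.18, limma). Without the knockout ZT8 replicate 3 the ZT8 difference was -0.23 with an adjusted p of 0.051 (limma), and in a fit of the 2 groups alone its adjusted p was 0.0659.

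Gsr, glutathione reductase, returns oxidised glutathione to its reduced form with NADPH. Its probe lies at chr8:34808488-34808547 (mm9). The lowest, median and highest values were 4.35, 4.49 and 4.67 in ZT8 controls against 4.55, 4.72 and 5.02 in ZT8 knockouts. They were 4.18, 4.35 and 4.62 against 4.03, 4.37 and 4.46 at ZT12, and 4.07, 4.23 and 4.32 against 4.27, 4.55 and 4.79 at ZT16. Knockouts were thus the higher group at ZT8 and ZT16 with some overlap, and both groups covered much the same range at ZT12. Gsr was higher by 0.26 (SE 0.08, adjusted p = 0.0136) at ZT8 and by 0.35 (SE 0.08, adjusted p = 8.3e-04) at ZT16 (limma). At ZT12 the difference was -0.05 (95% interval -0.22 to 0.11, adjusted p = 0.636, limma). The ZT8 call was lost when arrays were centred on their median (0.19, adjusted p = 0.119, limma) and in a fit of the 2 groups alone (adjusted p = 0.0594). The genotype effect differed over time for Gsr in the F test (F = 6.87, adjusted p = 0.0439, limma), a test that 8.46% of all genes passed. That call held in 4 of 12 other settings and when leaving out 13 of the 36 arrays 1 at a time, with adjusted p up to 0.227 and 0.102 (limma).

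Srxn1, sulfiredoxin, repairs overoxidised peroxiredoxins. Its probe lies at chr2:151937009-151937068 (mm9). At ZT8 the lowest, median and highest values were 3.06, 3.40 and 3.59 in controls and 3.23, 3.37 and 4.16 in knockouts, and at ZT12 they were 3.27, 3.40 and 3.48 against 3.12, 3.38 and 3.90. The 2 genotypes overlapped at these times, and the highest ZT8 value was that of the knockout ZT8 replicate 3. At ZT16 the controls held 2.95, 3.09 and 3.27 and the knockouts 3.75, 4.07 and 4.23, without overlap. The difference was 0.10 (95% interval -0.16 to 0.35) at ZT8 and 0.06 (95% interval -0.20 to 0.31) at ZT12, neither past the test (adjusted p = 0.589 and 0.741, limma). At ZT16 Srxn1 was higher in knockouts by 0.92 (SE 0.12, adjusted p = 6.51e-07, limma), a 1.89-fold level, and the 3 wash batches gave 0.84 to 1.07.

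The time dependence of Srxn1 was itself tested. Its genotype effect was larger at ZT16 than at ZT8 by 0.82 (SE 0.18, adjusted p = 0.00231, limma), a difference that 9.75% of all genes passed, 5.44% with the same sign. The F test over the 3 times gave F = 15.43 with an adjusted p of 0.0016 (limma). Both calls held in all the other settings run and whichever array was left out, and the difference was 0.98 at its highest in those fits. Srxn1 was the only enzyme of the 10 to pass the test of ZT16 against ZT8. Without the knockout ZT8 replicate 3, G6pdx passed as well (0.84, adjusted p = 0.0489, limma), and Txnrd1 passed the F test (F = 6.16, adjusted p = 0.0465, against 0.125 with all arrays, limma).

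Txnrd1, thioredoxin reductase 1 of the cytosol, keeps thioredoxin reduced with NADPH. One probe, at chr10:82360230-82360289 (mm9), had a lowest, median and highest value of 4.14, 4.35 and 4.56 in ZT8 controls against 4.26, 4.39 and 4.54 in ZT8 knockouts. It gave 4.20, 4.31 and 4.46 against 4.00, 4.16 and 4.24 at ZT12, and 4.10, 4.25 and 4.31 against 4.02, 4.12 and 4.26 at ZT16. The groups overlapped at each time. The difference passed at ZT12, at -0.18 (SE 0.06, adjusted p = 0.0215, limma), and not at ZT8 (0.08, adjusted p = 0.324) or ZT16 (-0.11, adjusted p = 0.162). The ZT12 call was lost in 5 of 13 other settings, with -0.01 in the authors' table, and without the control ZT12 replicate 5 (adjusted p = 0.0631) or the knockout ZT12 replicate 6 (adjusted p = 0.0607, limma). A second probe, at chr10:82338379-82338438 (mm9), gave 0.07, -0.06 and -0.07 at the 3 times, with adjusted p over all probes of 0.615 to 0.641 (limma).

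The oxidative branch of the pentose phosphate pathway starts with glucose-6-phosphate dehydrogenase (G6pdx), and 6-phosphogluconate dehydrogenase (Pgd) makes the second NADPH. Pgd was read at chr4:148524293-148524352 (mm9). Its lowest, median and highest values were 1.47, 1.92 and 2.37 in ZT8 controls and 1.09, 1.31 and 1.79 in ZT8 knockouts. At ZT12 they were 1.83, 2.09 and 2.80 against 0.90, 1.31 and 1.58, and at ZT16 1.56, 1.97 and 2.38 against 1.21, 1.35 and 1.57. Knockouts were the lower group at each time, and the groups did not overlap at ZT12. Pgd was lower, at -0.60 (SE 0.14, adjusted p = 0.00139) at ZT8, -0.82 (SE 0.14, adjusted p = 2.75e-05) at ZT12 and -0.60 (SE 0.14, adjusted p = 0.00124) at ZT16 (limma). Within wash batches the ZT8 difference ran from -0.86 to -0.15, the ZT12 difference from -0.85 to -0.71 and the ZT16 difference from -0.76 to -0.42. A second Pgd probe was well above background on 13 arrays, too near background to read, and the third was so on 1 array and was not tested.

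G6pdx, read at chrX:71654949-71655008 (mm9), varied widely within groups. The lowest, median and highest values were -0.59, -0.12 and 0.63 in ZT8 controls and -0.80, -0.44 and 0.77 in ZT8 knockouts. They were -0.31, -0.08 and 1.25 against -0.27, 0.00 and 0.76 at ZT12, and -0.29, 0.08 and 0.72 against 0.09, 0.32 and 0.67 at ZT16. The genotypes overlapped at all times. The differences of -0.28, 0.11 and 0.28 did not pass (adjusted p = 0.388, 0.752 and 0.375, limma), and their 95% intervals were -0.76 to 0.21, -0.38 to 0.59 and -0.21 to 0.76. Without the knockout ZT8 replicate 3, the highest of its group, the ZT8 difference was -0.53 and passed (adjusted p = 0.043, limma).

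Taldo1, transaldolase, belongs to the branch that returns pentoses to glycolysis, and it had the smallest adjusted p of the 10 at each time. Its first probe, at chr7:148588764-148588823 (mm9), gave a lowest, median and highest value of 5.98, 6.03 and 6.08 in ZT8 controls and 5.30, 5.47 and 5.60 in ZT8 knockouts. At ZT12 these were 5.99, 6.11 and 6.20 against 5.21, 5.45 and 5.56, and at ZT16 5.98, 6.04 and 6.16 against 5.26, 5.39 and 5.47. The groups did not overlap at any time. Taldo1 was lower, at -0.56 (SE 0.06, adjusted p = 3.73e-09), -0.67 (SE 0.06, adjusted p = 1.07e-10) and -0.68 (SE 0.06, adjusted p = 7.53e-11) at ZT8, ZT12 and ZT16 (limma). The second probe, at chr7:148587650-148587824 (mm9), gave -0.75, -0.81 and -0.88, also without overlap. For Taldo1 the exact two-sided permutation test of 6 against 6 arrays gave p = 0.00216 at each time with either probe, the smallest this design allows.

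Nqo1, a quinone reductase often used as a readout of NRF2 activity, did not differ past the test at any time. Its probe lies at chr8:109912440-109912499 (mm9). The lowest, median and highest values were -2.24, -1.64 and -1.09 in ZT8 controls and -1.83, -1.48 and -0.83 in ZT8 knockouts. They were -1.91, -1.54 and -0.47 against -2.25, -1.76 and -0.98 at ZT12, and -1.83, -1.28 and -0.94 against -1.88, -1.31 and -0.59 at ZT16, with broad overlap. The differences were 0.18 (95% interval -0.31 to 0.67), -0.17 (-0.66 to 0.32) and 0.09 (-0.40 to 0.58), with adjusted p of 0.601, 0.597 and 0.796 (limma). The intervals reach from -0.66 to 0.67, so the genotypes are not shown to be alike.

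Hmox1, haem oxygenase 1, breaks down haem and in liver is also made by macrophages that clear red cells. Its tested probe, at chr8:77624406-77624466 (mm9), had a lowest, median and highest value of 1.93, 2.20 and 2.48 in ZT8 controls and 2.49, 3.15 and 3.43 in ZT8 knockouts. At ZT12 they were 1.90, 2.16 and 2.76 against 2.69, 2.78 and 3.55, and at ZT16 2.17, 2.45 and 2.75 against 2.94, 3.23 and 3.96. Every knockout lay above every control at ZT8 and ZT16, and 5 of 6 did so at ZT12. Hmox1 was higher by 0.80 (SE 0.16, adjusted p = 2.65e-04), 0.79 (SE 0.16, adjusted p = 2.49e-04) and 0.81 (SE 0.16, adjusted p = 1.84e-04) at the 3 times (limma). The differences at ZT16 and ZT8 were 0.01 apart (95% interval -0.46 to 0.48). A second Hmox1 probe was well above background on 2 arrays and was not tested.

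Macrophage markers were looked at beside Hmox1. Of 10 markers (Adgre1, Clec4f, Cd5l, Vsig4, Marco, Timd4, Csf1r, Cd68, Cd163 and Lyz2), all detected on each of the arrays, 2 were called higher in knockouts at ZT8, 5 at ZT12 and 3 at ZT16, and none was called lower, beside 16.7%, 19.6% and 19.9% of all genes higher. Their signals, summed in multiples of that percentile, ran from 62.4 to 134 (median 76.1) in ZT8 controls and from 79.8 to 334 (median 165) in ZT8 knockouts. The sums ran from 47.8 to 151 (median 78.9) against 106 to 281 (median 182) at ZT12, and from 56.6 to 202 (median 85.6) against 115 to 396 (median 136) at ZT16. After group and wash batch means were removed, the log2 sum and Hmox1 correlated over the 36 arrays, with Pearson's r = 0.55 (adjusted p = 0.0225) and Spearman's rho = 0.51 (adjusted p = 0.0358, 100000 permutations within groups, adjusted over the 10 enzymes). Without the 2 arrays farthest from the median sum r was 0.61. No other enzyme passed this test, which was added after the values were seen. Markers of other cell types were counted too. Of 5 red cell markers tested, 0, 3 and 3 were called higher and 1 lower at ZT8, ZT12 and ZT16, of 5 lymphocyte markers 4 were higher at each time and 1 was lower at ZT12, and of 7 endothelial markers 0, 6 and 5 were higher. Of 7 stellate cell and fibroblast markers 0, 3 and 3 were higher, and of 5 genes of dividing cells 2, 1 and 3. All 3 pancreas markers tested were lower at each time, and of 6 fat cell markers 1, 2 and 1 were lower and 0 higher. Of 6 bile duct markers 0, 0 and 1 were higher and 0, 1 and 0 lower. Of 6 neutrophil markers 1, 0 and 2 were higher and 0, 1 and 1 lower. The part of these cell types in the Hmox1 result was not tested.

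**Figure D3:**
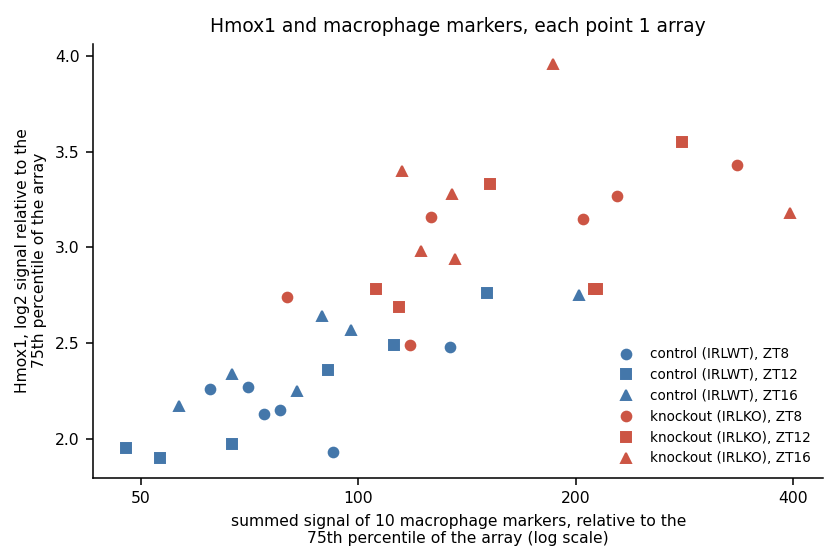
Log2 signal of Hmox1 (vertical axis) against the summed signal of 10 macrophage markers, in multiples of the array's 75th percentile (horizontal axis, log scale), with 1 point per array, controls in blue and knockouts in red. Both are higher in most knockouts, and the within-group r is 0.55.

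Between ZT8 and ZT16, 3 of the 10 enzymes passed in controls, near the 26.6% of all genes that passed. All 3 fell, where 13.2% of all genes fell and 13.4% rose. Gsr fell by 0.30 (SE 0.08, adjusted p = 0.00594, limma). Gclm fell by 0.26 (SE 0.09, adjusted p = 0.0383) and Gclc fell by 0.35 (SE 0.13, adjusted p = 0.0499, limma). Gclc lies at the threshold and was lost in 8 of 13 other settings and when leaving out 24 of the 36 arrays, among them the knockout ZT8 replicate 3 (-0.34, adjusted p = 0.0519, limma). Gclm was lost in 2 of the 13 settings and without any of 6 control arrays (replicates 1, 2 and 5 at ZT8 and 1, 3 and 6 at ZT16), with adjusted p of up to 0.0909 (limma).

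In knockouts, Srxn1 and G6pdx rose and Txnrd1 fell from ZT8 to ZT16, where 28.9% of all genes passed. Srxn1 rose by 0.54 (SE 0.12, adjusted p = 0.0011), beside -0.28 (adjusted p = 0.095) in controls (limma). The control value passed in 3 of 13 other settings, and without the knockout ZT8 replicate 3 (-0.30, adjusted p = 0.0235) or the control ZT8 replicate 2 (adjusted p = 0.0342, limma). G6pdx rose by 0.68 (SE 0.24, adjusted p = 0.0293, limma). Leaving out single ZT8 replicates (1, 2, 5 or 6) or ZT16 replicates (1, 2 or 5) of the knockouts ended the G6pdx call, with adjusted p of up to 0.0904, as did 5 of 13 other settings. Txnrd1 fell by 0.30 (SE 0.06, adjusted p = 3.54e-04) with its first probe, and with its second it fell by 0.36 (SE 0.10, adjusted p over probes = 0.00575, limma). Gsr, Gclm and Gclc, which fell in controls, changed by -0.20, -0.12 and -0.30 in knockouts. None of these passed (adjusted p = 0.0622, 0.359 and 0.0843, limma), though Gsr and Gclc each passed in 2 of 13 other settings. Of the enzymes in these ZT8 to ZT16 comparisons, only Srxn1 changed differently in the 2 genotypes past the test with all arrays, and without the knockout ZT8 replicate 3 G6pdx did so too, as given above. Over all 3 times, Gsr also passed the F test, and Txnrd1 did without that array.

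The enzymes were also compared with each other over the 36 arrays after group and wash batch means were removed. Of 45 pairs, 10 passed with both Pearson's r and Spearman's rho (permutations within groups, adjusted over the 45 pairs), 8 of them positive, and the median r over all pairs was 0.09. G6pdx and Pgd, the enzymes that make NADPH in the oxidative branch, had r = 0.70, the highest of the pairs. The glutathione enzymes formed a group: Gclc with Gsr at 0.59, Gclm with Gsr at 0.58 and Gclc with Gclm at 0.55, while Gsr with Txnrd1 gave 0.64. Nqo1 went with Pgd (0.64) and Srxn1 (0.63), and Srxn1 with Pgd (0.52). Gclm was negatively correlated with Srxn1 (-0.52) and with Nqo1 (-0.51). The control ZT12 replicate 2 was the highest of its group for Nqo1, G6pdx and Pgd, and without it r was 0.64 for G6pdx with Pgd and 0.58 for Nqo1 with Pgd. All pairs share the array and its scaling.

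**Figure D4:**
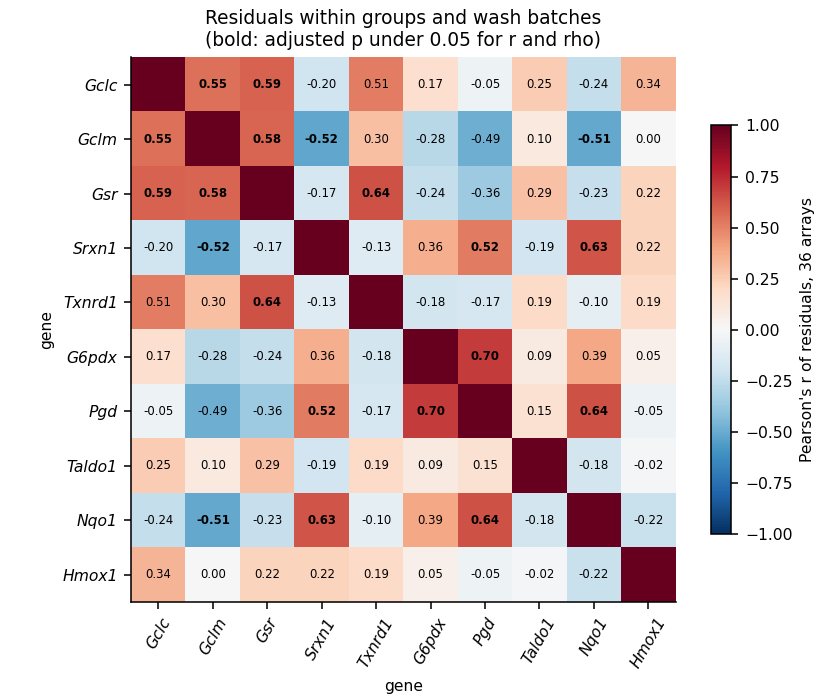
Pearson's r between the 10 enzymes (both axes) over 36 arrays after group and wash batch means were removed, coloured from -1 (blue) to 1 (red), with bold numbers for the pairs past both tests. Among the positive pairs past both tests, Gclc, Gclm and Gsr go together, and Txnrd1 only with Gsr. Pgd, Nqo1 and Srxn1 also go together, and G6pdx only with Pgd.

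Over all 36 arrays as measured, with genotype and time differences included, the genes most like each enzyme were found among the 17889 other genes detected on every array. Pgd was most like Acly (r = 0.929) and Fasn (0.909), enzymes of fatty acid synthesis. Taldo1 was most like Ces1f (0.972) and Nat8 (0.970), and Gclc most like Slc22a30 (0.901) and Ap3s1 (0.887). Hmox1 was most like Marcksl1 (0.901) and Cd86 (0.894), the latter a costimulatory protein of antigen-presenting cells. Gclm was most like Ugt2b38 (0.88) and Ugt2b5 (0.87), Srxn1 most like C2cd5 (0.846) and Il4i1 (0.838), and Gsr most like Arhgef12 (0.804) and Psmd4 (0.785). The highest values were lower for Txnrd1 (Ifrd2, 0.80, and Rala, 0.786), G6pdx (Mob3a, 0.763, and Igfbp7, 0.758) and Nqo1 (Gypc, 0.677, and Ttc21b, 0.657).

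The other genes of these pathways were taken as lists, whose counts stand beside 16.7%, 19.6% and 19.9% of all genes higher and 18.7%, 22.6% and 20% lower at ZT8, ZT12 and ZT16. The lists too were chosen with earlier results of these data known, so their counts are a description and not a test of an excess. Of 14 further genes of the pentose phosphate pathway and linked sugar metabolism, 11 were tested, and of these 5 were lower at ZT8, 8 at ZT12 and 7 at ZT16, and 0, 1 and 1 were higher. The list's median differences were -0.37, -0.51 and -0.22. Transketolase (Tkt), which works beside transaldolase, was lower, at -0.42, -0.70 and -0.66 (SE 0.08), and ribulose-phosphate epimerase (Rpe) at -0.48, -0.51 and -0.47 (SE 0.07). Sedoheptulokinase (Shpk) differed at -0.87, -0.80 and -0.51 (SE 0.11) and phosphoglucomutase Pgm1 at -0.37, -0.63 and -0.75 (SE 0.07). All 4 passed at the 3 times (limma).

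Of 13 other genes that make or handle NADPH, 5, 4 and 4 were lower and 3, 3 and 2 were higher at ZT8, ZT12 and ZT16, and the shares higher are near those of all genes. Malic enzyme 1 (Me1) was lower, at -0.73, -2.29 and -1.53 (SE 0.24) and cytosolic isocitrate dehydrogenase (Idh1) at -0.66, -0.98 and -0.80 (SE 0.08). Glutamate dehydrogenase (Glud1) was lower, at -0.64, -0.74 and -0.80 (SE 0.06), and mitochondrial isocitrate dehydrogenase (Idh2) was higher by 0.77, 0.66 and 0.40 (SE 0.09). Among 14 genes of fatty acid synthesis, the main consumer of cytosolic NADPH, 8, 10 and 9 were lower and 0, 0 and 1 higher, with medians of -0.82, -1.32 and -1.08. Its 4 genes of smallest p were Thrsp (-2.86, -4.46 and -5.08, SE 0.32), Scd1 (-2.28, -2.16 and -1.84, SE 0.22), Pklr (-1.56, -2.42 and -2.46, SE 0.24) and Srebf1 (-1.80, -1.48 and -1.12, SE 0.19), all past the test at each time.

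Among the 28 of 30 further known NRF2 targets that were tested, 12, 15 and 11 were lower and 6, 5 and 4 higher at the 3 times, with medians of -0.23, -0.39 and -0.09. Aldehyde oxidase Aox1 was lower, at -1.15, -1.79 and -0.81 (SE 0.11) and Entpd5, a nucleotide hydrolase, at -0.34, -0.94 and -0.55 (SE 0.10). Cyp2a5, a cytochrome P450, was lower at ZT12 (-0.90) and ZT16 (-1.96, SE 0.19) and did not pass at ZT8 (-0.23, adjusted p = 0.354, limma). Me1, given above, is also on this list. Txn1 and some further genes are on this list and on a list given below, so the counts of the lists are not independent. The shares of this list called higher are near those of all genes at ZT8 and ZT12 and below at ZT16. Of the targets that were higher, 2 are named after their values were seen. Osgin1, an oxidative stress induced growth inhibitor, was higher by 1.46, 1.36 and 1.44 (SE 0.26), and Abcc4, an efflux transporter, by 1.27, 1.63 and 1.2 (SE 0.20). Of 14 genes for NRF2 and its regulators, 5, 3 and 3 were higher and 3, 5 and 3 lower, at ZT16 near the shares of all genes in both directions. Nfe2l2, named here as the gene of NRF2 itself, was lower at ZT8 (-0.33, SE 0.10, adjusted p = 0.0116) and ZT12 (-0.27, adjusted p = 0.031), and its ZT16 difference of -0.21 did not pass (adjusted p = 0.0979, limma). Sqstm1, which draws KEAP1 to autophagy, was higher by 0.19, 0.32 and 0.59 (SE 0.07). The small MAF partners went different ways: Mafk was higher at ZT12 (0.52) and ZT16 (0.68, SE 0.10), Maff at ZT8 (1.24) and ZT12 (1.49, SE 0.27), and Mafg was lower at all 3 times (-0.34, -0.33 and -0.48, SE 0.09).

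Of 13 tested among 15 further genes of glutathione synthesis and turnover, 5, 5 and 6 were lower and 4 were higher at each time. Glutathione synthetase (Gss), the enzyme of the second step of synthesis and named after its values were seen, was higher by 0.73, 0.57 and 0.54 (SE 0.11), past the test at each time. Glyoxalases Glo1 (-0.98, -1.08 and -0.87, SE 0.09) and Hagh (-0.67, -0.66 and -0.80, SE 0.07), which use glutathione to clear methylglyoxal, were lower, as was Chac2, which degrades glutathione (-0.90 at ZT8 and -0.93 at ZT12, SE 0.10). Glutaredoxin (Glrx) was higher at ZT8 (0.87) and ZT12 (0.27) and lower at ZT16 (-0.53, SE 0.11). Of 17 genes of thioredoxins, peroxiredoxins and superoxide removal, 6, 7 and 9 were lower and 3, 4 and 4 higher. Prdx4 was lower, at -1.05, -0.77 and -0.58 (SE 0.09), Prdx5 at -0.42, -0.45 and -0.58 (SE 0.05) and thioredoxin (Txn1) at -0.31, -0.58 and -0.51 (SE 0.07). Prdx6 was lower at ZT12 (-0.42) and ZT16 (-0.73, SE 0.09) and did not pass at ZT8 (-0.20, adjusted p = 0.067, limma).

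Hmox1 was set beside 13 other genes of haem metabolism, of which 7, 8 and 7 were lower and 2, 0 and 3 higher at the 3 times. The haem synthesis enzyme Cpox was lower at all times (-0.65, -1.10 and -1.24, SE 0.15), and Alad was lower at ZT12 (-0.71) and ZT16 (-0.48, SE 0.08). Biliverdin reductase (Blvra), which acts after haem oxygenase, was lower, at -0.36, -0.42 and -0.43 (SE 0.08).

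**Figure D5:**
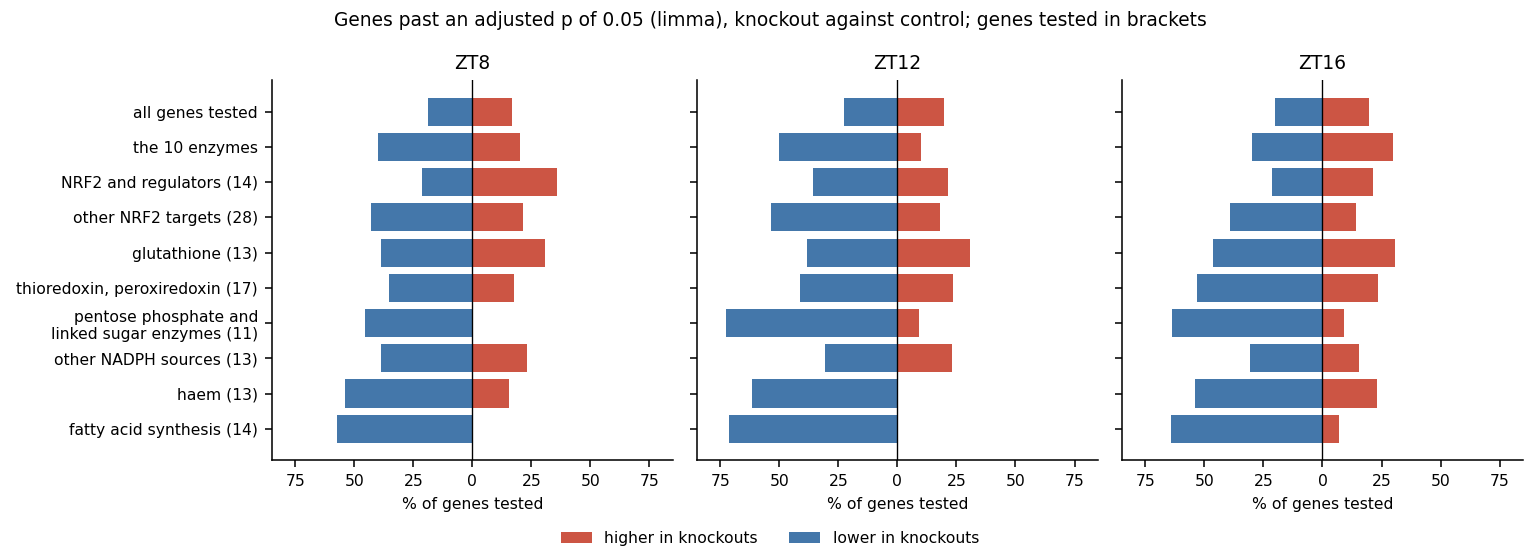
Share of the genes tested (horizontal axis, percent) that were called higher (red, to the right) or lower (blue, to the left) in knockouts at ZT8, ZT12 and ZT16, for all genes, the 10 enzymes and 8 lists, with the number of genes tested in brackets. At ZT12, 5 of the 10 enzymes and 8 of 11 further pentose phosphate genes were lower, beside 22.6% of all genes.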

How the data were processed

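Agilent SurePrint G3 Mouse GE v2 arrays were hybridised with 1 dye (Cy3). Per the file headers, Feature Extraction 10.10.1.1 gave the spot intensity, and the deposited processed signal is background subtracted. The deposited spot flags are other values, 0 or 1. The authors' table holds log2 values of 32801 probes whose sorted values are the same in all 36 columns, and it was used as an alternative. Signals were taken to log2, each array's 75th percentile was subtracted, outlier spots were left out, and probes well above background on at least 6 arrays were kept (91 that lacked a value on some array were dropped). The brightest probe stood for a gene. limma 3.58.1 (R 4.3.3) fitted 6 group means and wash batch (3 batches), with Benjamini-Hochberg over all genes and a threshold of 0.05; further probes were fitted and adjusted over all 34678 probes. Fits were tested on simulated data. Arrays give no counts, and their number limits the precision. Probe positions are in mm9, as the files give them; the annotation at hand is of another build, so exons are not given. Gene names were taken through RefSeq for 32994 of 56605 probes, which changed the name of 1535 probes. The members and lists were chosen with earlier results of these data known. Named are Insr, the 10 enzymes with every probe, the 4 genes of smallest p in each list (1 of them is not reported here) and the 2 genes most like each enzyme; Nfe2l2, Osgin1, Abcc4 and Gss were added after their values were seen. The correlation of the enzymes with the macrophage markers was also added after the values were seen. Replicate numbers did not pair the arrays. Alternatives covered background correction, scaling, the probe filter, wash batch, slide, array weights, the replicate block, the probe rule, the groups fitted and each array left out.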

Additional observations from a re-analysis of the deposited data

Results flagged for a closer look

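In 60 groups of 6 arrays (10 enzymes in 6 groups), 5 held an array far from the others by Dixon's test at 95%, and chance flags about 1 in 20 groups. Of these, 3 were on 1 array, the control ZT12 replicate 2: Nqo1 at -0.47 (the others lay between -1.91 and -1.37), G6pdx at 1.25 (-0.31 to 0.03) and Pgd at 2.80 (1.83 to 2.19). Srxn1 was 4.16 in the knockout ZT8 replicate 3, while the other ZT8 knockouts lay between 3.23 and 3.49. Gsr was 4.03 in the knockout ZT12 replicate 1, below the others at 4.31 to 4.46.

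The genotype effect differed between times for Srxn1, with F = 15.43 over the 3 times and a difference of 0.82 between ZT16 and ZT8. For Gsr, F was 6.87 (adjusted p = 0.0439, limma), a call that held in 4 of 12 other settings. Without the knockout ZT12 replicate 1, flagged above for Gsr, it was lost (F = 5.22, adjusted p = 0.0954, limma).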

How the results depend on the processing

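For the 10 enzymes, 900 values were compared over the 7 comparisons and 13 other settings, of which 861 kept their call, 31 lost it, 8 gained it and 0 called values changed sign. Leaving out each array in turn, the enzymes called numbered 6 to 6 at ZT8, 5 to 6 at ZT12 and 6 to 6 at ZT16 between genotypes, 1 to 3 between times in controls, 2 to 4 in knockouts, 1 to 2 for the genotype effect at ZT16 minus at ZT8 and 1 to 3 in the F test. The 6 at ZT8 were not always the same enzymes, as without the knockout ZT8 replicate 3 Gclm was lost and G6pdx gained. The genes called numbered 7292 to 8549, 8933 to 10268 and 8248 to 9863 between genotypes, 5454 to 6575 and 5893 to 7560 between times, 1820 to 3274 for ZT16 minus ZT8 (2248 with all arrays) and 1456 to 3006 in the F test (1951 with all arrays), the highest of the last 2 without the knockout ZT8 replicate 3. The enzymes called in the F test fell from 2 to 1, Srxn1, with quantile normalization, the median of each array, the authors' table, no filter on dim probes, no wash batch term, slide as a random block or the mean of a gene's probes. With the replicate block it was also 1; the numbers did not pair the arrays (7 of 36 correlated best with their own number). The genes called in the F test numbered 1154 with the median of each array, 1274 without the filter and 3711 with array weights, which gave 4034 for ZT16 minus ZT8. Without the filter 1 enzyme was called between times in controls, against 3. In a fit of only the groups compared, 4362 genes were called between times in knockouts, against 6662. That fit called 4 enzymes between genotypes at ZT8, against 6, with Gclm and Gsr lost. The cause of these shifts was not tested. The secondary probes of Pgd and Hmox1 lie too near background to read.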
